A study of Mus musculus with 32 samples.

Results

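The cytosolic ribosomal protein genes encode the protein parts of the ribosome that works in the cytoplasm. In the expression table of these retinas they were chosen by name, as Rps or Rpl followed by a number, with Rpsa, Rplp0, Rplp1 and Rplp2, leaving out pseudogene names and the Rps6k kinases, and by a mean FPKM of 1 or more. FPKM are fragments per kilobase of transcript, scaled to the mapped fragments of the library, and are thus a level per length. The name matched 84 genes and 81 of them reached that level, 33 of the small and 48 of the large subunit, among 14322 genes of 26629 named entries that did so. The other 3, Rpl10l, Rpl39l and Rpl3l, had mean FPKM of 0, 0.182 and 0.293. All 3 are copies known mainly from testis or muscle.

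Spaceflight retinas came from female C57 BL/6J mice that were 16 weeks old at launch, flew for 37 days and were killed and frozen in orbit, so that the retinas were dissected after return. Ground control mice of the same sex, strain and age (21 weeks by the labels) lived in the same kind of habitat on Earth. RNA was sequenced from 9 spaceflight retinas (M21 to M27, M29 and M30) and 7 ground control retinas (M31 to M36 and M40), each from 1 mouse, and CpG methylation was read in 8 spaceflight and 8 ground control retinas. The source name of the M21 RNA library is that of a flight mouse and its condition label is that of a ground control, and it was placed with spaceflight. In 6 ground control RNA libraries the mouse numbers of the labels are not those of the study's sequencing table, whose numbers are used here. Short structured RNAs took 43.5% to 77.4% of a library's FPKM in spaceflight retinas and 60.7% to 77.4% in ground control retinas. This is a share of summed FPKM and not of fragments, so it does not give how far the scale of other genes moved. The part of these RNAs in the differences was not tested.

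A ribosome joins a small subunit, which binds the mRNA and checks the match of codon and tRNA, with a large subunit, which forms the peptide bond. Each ribosome holds a single copy of most of its proteins, and the acidic stalk proteins, which recruit the elongation factors, are the known exception. The mRNAs of these proteins typically begin with a run of pyrimidines (the terminal oligopyrimidine tract) through which mTOR signalling, by way of Larp1, sets their translation together. Retinal neurons depend on this machinery, and photoreceptors in particular replace their outer segment proteins every day.

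The sequence at the transcription start is shown because the pyrimidine run there is the feature that members are known to share. RefSeq start windows of GRCm38.p6 matched 59 of the 81 members, and 23 of them (39%) had a C followed by at least 4 bases that are each C or T, beginning within 3 bases of the annotated start on the gene's own strand, against 11.3% of 17923 promoters in the table. The share was 41.7% of 24 small subunit genes and 37.1% of 35 large subunit genes. Each window holds the 15 bases before the start and the first 15 transcribed, 5′ to 3′. The pyrimidine run is in capitals from the C defined above, and any pyrimidines directly before that C stay in small letters. It is given for members with large or small changes and for 1 member without a run.
Rpl18 (chr7:45718056-45718085, plus strand): tgcgtctcgcaggccgCTCTTTCCCCgccc
Rpl7a (chr2:26910792-26910821, plus strand): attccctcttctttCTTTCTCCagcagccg
Rplp2 (chr7:141447636-141447665, plus strand): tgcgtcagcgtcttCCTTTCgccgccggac
Rpl22l1 (chr3:28805493-28805522, plus strand): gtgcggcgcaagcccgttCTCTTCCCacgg
Rps27 (chr3:90213634-90213663, minus strand): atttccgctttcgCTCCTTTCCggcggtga
Rpl38 (chr11:114668565-114668594, plus strand): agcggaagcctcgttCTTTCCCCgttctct
Rps15a (chr7:118116133-118116162, minus strand): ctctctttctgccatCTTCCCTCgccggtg
Rps28 (chr17:33824548-33824577, minus strand): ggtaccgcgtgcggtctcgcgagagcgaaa

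No ribosomal protein gene passed the main test between spaceflight and ground control retinas. That test was limma on log2(FPKM + 0.1) over all 14322 genes, and a gene was called where the fold change reached 1.2, p was at most 0.05 and the adjusted p was at most 0.3. The background was small as well, at 0.0489% of all genes called higher and 0.0978% called lower. At an unadjusted p of at most 0.05 and a fold change of at least 1.2 (the looser rule), 9 of the 81 genes passed, all of them lower after spaceflight, 3 of the small subunit (Rps29, Rps28 and Rps25) and 6 of the large one, among them Rpl7a, Rpl8, Rpl18, Rpl23a and Rplp2. This is 11.1% of the genes, against 2.92% of all genes lower by this rule, and 0 ribosomal protein genes were higher, against 4.36% of all genes. Quantile normalization, by contrast, gave 4 genes higher and 3 lower (Rpl18, Rps28 and Rps29), against 3.59% and 2.81% of all genes. The lowest limma adjusted p of any member was 0.369, and the groups overlapped in all 81 genes. Overlap was not counted over all genes, so this has no background beside it. The count of 9 also depended on single libraries. It was 17 without the spaceflight retina M22 (21.0%, against 3.74% of all genes) and 15 without the ground control retina M33 (18.5%, against 3.96%). It was 4 (4.94%) without M31, M40 or M25, against 5.40%, 1.33% and 2.49% of all genes, and 5 (6.17%) without M30, against 2.59%. Without M31 the share was thus under that of all genes. With M21 read as a ground control, 6 genes passed (7.41%, against 1.73% of all genes) and Rps28, Rps25, Rpl7a and Rplp2 were not among them. In an RNA extract of whole retina, fewer cells of a type and less RNA per cell cannot be told apart.

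Over all 81 genes the median log2 change (spaceflight minus ground control) was −0.12, against −0.000510 for all genes tested, and 57 of the 81 changes were negative (70.4%, against 50.1% of all genes), but under quantile normalization the median was 0.00388 with 37 negative changes. With FPKM rescaled to sums without short structured RNAs it was −0.03, with 46 negative changes, while the median of all genes moved to 0.09. The subunits had near-equal medians. The 33 small subunit genes had a median of −0.12 and a range of −0.64 to 0.17, with 22 negative changes. The 48 large subunit genes had a median of −0.12 and a range of −0.39 to 0.71, with 35 negative changes. By the looser rule 3 of 33 small subunit genes (9.09%) and 6 of 48 large subunit genes (12.5%) were lower.

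**Figure D1:**
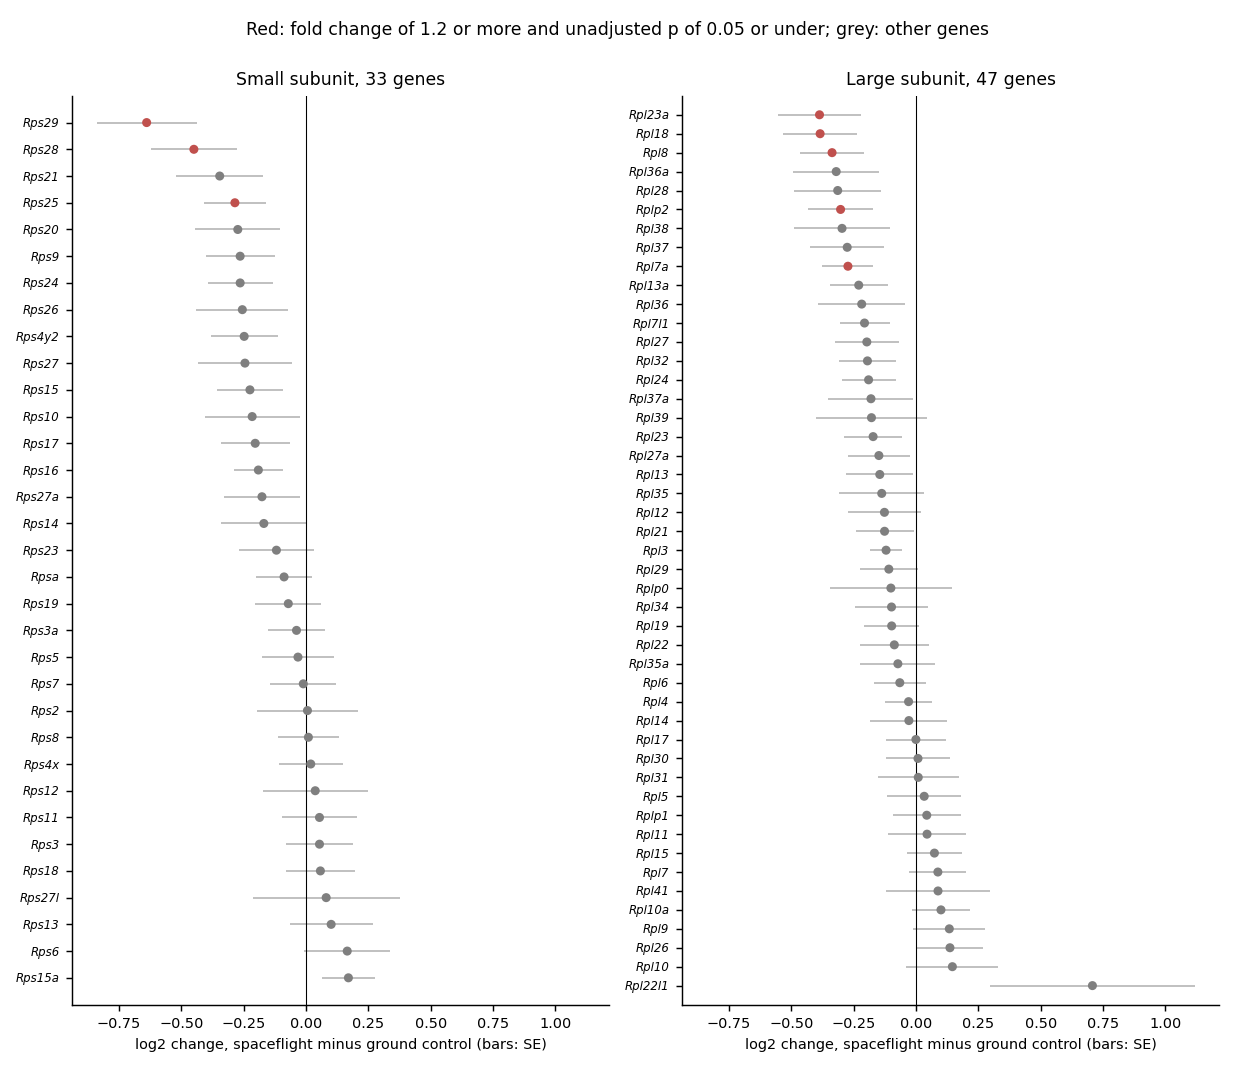
Log2 change in FPKM (horizontal axis, spaceflight minus ground control, with the standard error) of 80 ribosomal protein genes, 33 of the small subunit on the left and 47 of the large subunit on the right, sorted from the lowest at the top. Red points are the genes at a fold change of at least 1.2 and an unadjusted p of 0.05 or under, all of them negative. Over all 33 and 48 genes both subunits have a median of −0.12, and over all 81 genes the median under quantile normalization was 0.00388.

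The most negative change was that of Rps29, a small zinc-binding protein in the head of the small subunit, whose human gene is mutated in some families with Diamond-Blackfan anaemia. Its FPKM ran from 250.2 to 428 in spaceflight retinas (median 306), against 329 to 1028 in ground control retinas (median 419). The ground control retinas M40 (1028 FPKM), M32 (614 FPKM) and M36 (590.3 FPKM) lay above every spaceflight retina, while the other 4 lay within the spaceflight range and above its median. The mean of spaceflight retinas was 321 ± 56.0 FPKM, that of ground control retinas 532.7 ± 245.7 FPKM (SD, n = 9 and n = 7), a log2 change of −0.64 ± 0.20 (SE) or 1.56-fold lower, at a limma adjusted p of 0.369 (unadjusted 0.00548). The change stayed negative in all 33 alternative settings, between −0.80 and −0.25, with adjusted p between 0.248 and 0.963. It was −0.46 without M40 (limma adjusted p = 0.624) and −0.36 without both M32 and M40 (limma adjusted p = 0.916).

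Rps28, a small subunit protein near the mRNA exit, followed. It had 192 to 303 FPKM in spaceflight retinas (median 229), against 245 to 645 FPKM in ground control retinas (median 271). M40 alone was above 369 FPKM, and without it the log2 change of −0.45 ± 0.17 (SE, limma adjusted p = 0.395) became −0.28. Rps25, which is known for its part in initiation at viral internal entry sites, had 221 to 337 FPKM (median 290.1) in spaceflight retinas, against 274 to 492 FPKM (median 333) in ground control retinas, a log2 change of −0.29 ± 0.12 (SE, limma adjusted p = 0.435). Its 2 highest values were those of the ground control retinas M40 and M31, and the other 5 ground control retinas lay within the spaceflight range.

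In the large subunit the lowest change was that of Rpl23a, which lines the exit of the peptide tunnel and hosts 3 small nucleolar RNAs in its introns. Spaceflight retinas had 305 to 594 FPKM (median 355), against 330.1 to 737 FPKM (median 541) in ground control retinas. M22 was the highest spaceflight retina, at 594 FPKM, and M32 the highest ground control retina. The log2 change was −0.39 ± 0.17 (SE, limma adjusted p = 0.432). RefSeq names 11 pseudogenes of Rpl23a, and the sources used here do not say how the authors' counting shared reads between such copies.

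Rpl18, a large subunit protein, ranged from 92.4 to 185 FPKM (median 109.9) in spaceflight retinas and from 119 to 215 FPKM (median 136) in ground control retinas. Of the spaceflight retinas only M22 and M21 were above 120 FPKM. The log2 change of −0.38 ± 0.15 (SE, limma adjusted p = 0.395) stayed between −0.47 and −0.27 in all 33 settings.

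Rpl8, which contacts the peptidyl transferase centre, had 142 to 198 FPKM (median 166) after spaceflight, against 178 to 361 FPKM (median 194) in ground control retinas. M40 held the 361 FPKM, and the next ground control retina was at 219.7 FPKM. The log2 change was −0.34 ± 0.13 (SE, limma adjusted p = 0.395), and −0.21 without M40. RefSeq names 13 pseudogenes of Rpl7a. Rpl7a had 154 to 236 FPKM (median 187) in spaceflight retinas, against 187 to 284 FPKM (median 228) in ground control retinas. Its log2 change was −0.27 ± 0.10 (SE, limma adjusted p = 0.395). For Rpl7a 4 spaceflight retinas (M21, M22, M23 and M29) reached into the ground control range, and for Rpl8 3 did (M22, M23 and M29).

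The acidic stalk, through which the large subunit engages elongation factors, was uneven. Rplp2 had 277 to 525 FPKM (median 349) in spaceflight retinas, against 342 to 547 FPKM (median 458) in ground control retinas, a log2 change of −0.30 ± 0.13 (SE, limma adjusted p = 0.432). Its partner Rplp1 had 474 to 642 FPKM (median 559) in spaceflight retinas, against 375 to 765 FPKM (median 554) in ground control retinas, a log2 change of 0.04 ± 0.14 (SE). The anchor Rplp0 had 69.3 to 208 FPKM (median 78.6) in spaceflight retinas and 78.8 to 206 FPKM (median 89.7) in ground control retinas, a log2 change of −0.10 ± 0.25 (SE). In 3 retinas Rplp0 was far above the rest, M22 (208 FPKM) and M21 (159.5 FPKM) of the spaceflight group and M31 (206 FPKM) of the ground control group, and all others were at 109.6 FPKM or under.

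**Figure D2:**
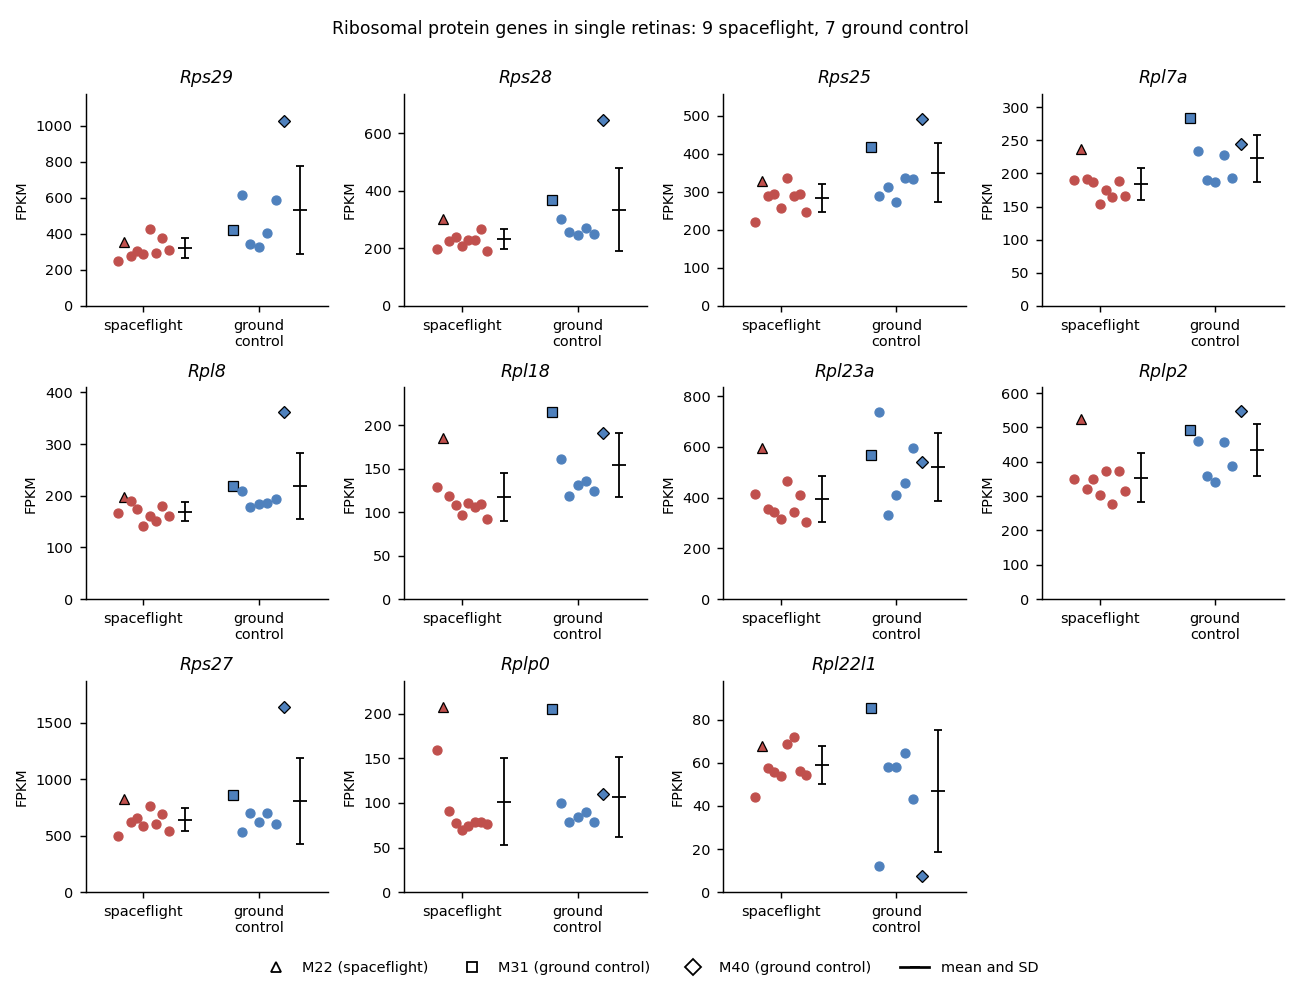
FPKM (vertical axes, linear from 0) of 11 ribosomal protein genes in each of 9 spaceflight and 7 ground control retinas, with the mean and SD beside each group. The first 8 panels are genes at a fold change of at least 1.2 and an unadjusted p of 0.05 or under. The triangle, square and diamond mark M22, M31 and M40, and M40 is the highest retina for Rps29 (1028 FPKM) and Rps28 (645 FPKM) and the lowest for Rpl22l1 (7.38 FPKM).

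The only change above 0.2 on the log2 scale was that of Rpl22l1, a paralogue of Rpl22 that can take its place in the ribosome and that also acts on splicing. Spaceflight retinas had 44.1 to 71.9 FPKM (median 56.2), against 7.38 to 85.3 FPKM (median 57.9) in ground control retinas. The ground control retinas M40 (7.38 FPKM) and M32 (12.3 FPKM) stood far below the other 14, and the group medians were near each other. The log2 change of 0.71 ± 0.41 (SE) had a limma adjusted p of 0.531, and it was −0.05 without M32 and M40. Rpl22 itself, which mice need for T cell development but not for life, averaged 61.2 ± 8.18 FPKM in spaceflight retinas, against 66.6 ± 19.7 FPKM in ground control retinas (SD, n = 9 and n = 7), a log2 change of −0.09 ± 0.14 (SE) that was 0.03 without M31.

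Other paralogue pairs differed in level more than in change. Rps27, a zinc-binding protein of the small subunit, averaged 643 ± 103 FPKM in spaceflight retinas, against 808 ± 382 FPKM in ground control retinas (SD, n = 9 and n = 7), where M40 alone reached 1643 FPKM. Its p53-inducible paralogue Rps27l averaged 47.3 ± 15.7 FPKM in spaceflight retinas, against 50.2 ± 36.3 FPKM in ground control retinas. Their log2 changes were −0.24 ± 0.19 and 0.08 ± 0.30 (SE), and −0.06 for Rps27 without M40. Rpl7 averaged 197 ± 20.9 FPKM in spaceflight retinas, against 188 ± 41.2 FPKM in ground control retinas (log2 change 0.09 ± 0.11, SE). Its paralogue Rpl7l1 averaged 9.75 ± 0.880 FPKM, against 11.4 ± 2.17 FPKM in ground control retinas (log2 change −0.21 ± 0.10, SE).

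Rps4x, the X-linked form of a small subunit protein, averaged 139.1 ± 20.6 FPKM in spaceflight retinas, against 139.3 ± 33.9 FPKM in ground control retinas. The entry Rps4y2, which RefSeq lists as Rps4l with a non-coding transcript, averaged 35.5 ± 6.15 FPKM, against 42.6 ± 9.74 FPKM in ground control retinas. X-linked Rpl36a and its autosomal copy Rpl36al, which the name rule leaves out, had log2 changes of −0.32 ± 0.17 and −0.21 ± 0.13 (SE). Rpl3, which shapes the peptidyl transferase centre and whose muscle form Rpl3l was close to 0 here, had the smallest standard error of the members named, at a log2 change of −0.12 ± 0.06 (limma adjusted p = 0.508).

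Of the X-linked members, Rpl10, which joins the large subunit late in its assembly, averaged 152 ± 46.4 FPKM in spaceflight retinas, against 140.1 ± 55.6 FPKM in ground control retinas (log2 change 0.15 ± 0.18, SE). Rpl39, which lines the peptide tunnel, averaged 93.6 ± 21.2 FPKM, against 114 ± 53.7 FPKM in ground control retinas (log2 change −0.18 ± 0.22, SE). No gene of these pairs had an adjusted p of 0.3 or under.

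Levels per length spread widely for proteins that mostly enter the ribosome in equal number. The median member had a mean of 201 FPKM, and the small and large subunit medians were 195.5 and 202 FPKM. Highest were Rpl28 (894 FPKM), Rpl19 (559 FPKM) and Rpl38 (558 FPKM) in the large subunit and Rps27 (715 FPKM), Rps12 (535 FPKM) and Rps15 (509 FPKM) in the small one. Rpl28 is a eukaryote-specific protein, Rpl19 forms a bridge between the subunits, and Rpl38 is known for its part in translating Hox mRNAs in the mouse embryo. Their log2 changes were −0.31 ± 0.17, −0.10 ± 0.11 and −0.30 ± 0.19 (SE). Those of Rps12 and Rps15 were 0.04 ± 0.21 and −0.22 ± 0.13 (SE). Without M40 the change of Rpl38 was −0.15 and that of Rps15 −0.11, and without M31 that of Rps12 was 0.22. Lowest were Rpl7l1 (10.5 FPKM), Rpl15 (24.9 FPKM) and Rpl22l1 (53.7 FPKM) in the large subunit, and Rps15a (12.9 FPKM), Rps4y2 (38.6 FPKM) and Rps14 (48.2 FPKM) in the small one. Rpl15 and Rps14 had log2 changes of 0.07 ± 0.11 and −0.17 ± 0.17 (SE), and that of Rps14 was 0.02 without M40.

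Rps15a and Rpl15 belong to every ribosome, yet were read at a small share of the level of their neighbours. The RefSeq transcript of Rps15a used here is the longest of the members, at 5136 nucleotides against a median of 734, and that of Rpl15 has 1972. Which transcript length entered the deposited FPKM is not given in the sources used here, so the order of levels between genes is tied to transcript models. Rps15a had the highest change of the small subunit, at 13.5 ± 1.47 FPKM in spaceflight retinas, against 12.1 ± 2.35 FPKM in ground control retinas (SD), a log2 change of 0.17 ± 0.11 (SE, limma adjusted p = 0.554).

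Members with a second known role showed no shared direction. Rps6, the S6 kinase substrate of the small subunit, averaged 108 ± 11.4 FPKM in spaceflight retinas, against 102 ± 38.3 FPKM in ground control retinas, where M40 (57.2 FPKM) and M32 (64.8 FPKM) were low and M31 (173 FPKM) was high. Rpl5 and Rpl11, which with 5S rRNA hold back Mdm2 when ribosome assembly fails, had log2 changes of 0.03 ± 0.15 and 0.04 ± 0.16 (SE). Rpsa, also known as the laminin receptor, and Rpl10a had log2 changes of −0.09 ± 0.11 and 0.10 ± 0.12 (SE).

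Summed over genes, the small subunit took 6343 to 9861 FPKM in spaceflight retinas (median 7207), against 6942 to 12111 FPKM in ground control retinas (median 7512). The large subunit took 9914 to 16004 FPKM (median 11055) in spaceflight retinas, against 10761 to 17873 FPKM (median 11388.5) in ground control retinas. The groups overlapped in both sums. M22 was the highest spaceflight retina in each, and M40 and M31 were the 2 highest ground control retinas in each.

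The ratio of small to large subunit sums varied less. It was 0.616 to 0.656 in spaceflight retinas (mean 0.643 ± 0.0140, SD, n = 9) and 0.636 to 0.793 in ground control retinas (mean 0.668 ± 0.0557, SD, n = 7). M40 alone was above 0.660, and the 6 other ground control retinas lay within 0.636 to 0.660. The median ratios were 0.647 after spaceflight and 0.647 in ground control retinas.

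**Figure D3:**
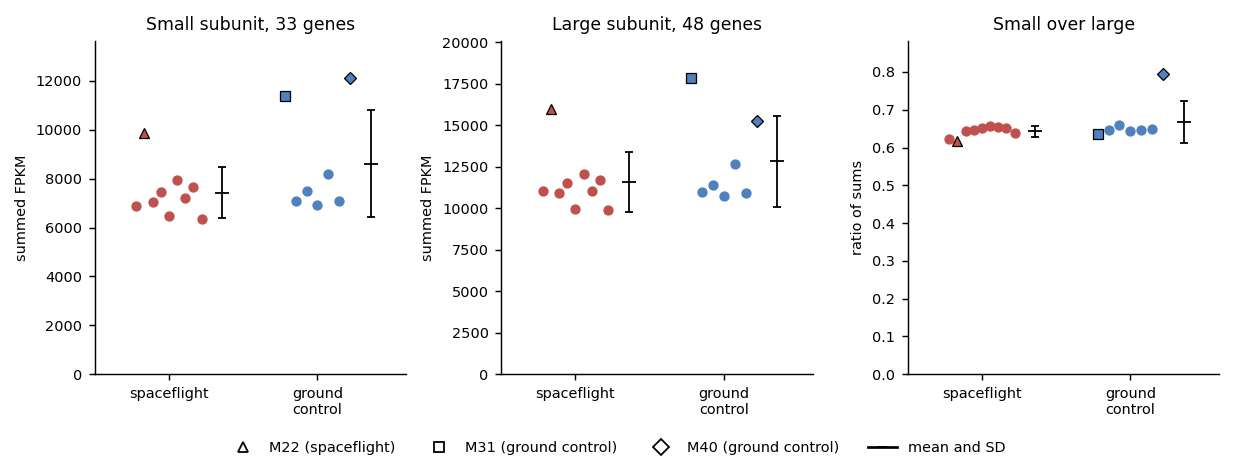
Summed FPKM of the 33 small and the 48 large subunit genes and their ratio (vertical axes, linear from 0) in 9 spaceflight and 7 ground control retinas, with the mean and SD beside each group. M22 and M31 are high in both sums. The lowest ratios are those of M22 (0.616), M21 (0.624) and M31 (0.636), and M40 has the highest, at 0.793.

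Retinas M22 of the spaceflight group and M31 of the ground control group had the highest level of the median ribosomal protein gene. Against each gene's median over the 16 retinas, the median member was 0.42 higher in M22 and 0.56 higher in M31 on the log2 scale, and between −0.19 and 0.32 in the other 14. In 80 of 81 genes both retinas were above the median of the other 14, and in 38 genes (13 of the small subunit) both were above all 14. Rps27l, at 80.8 FPKM in M22 and 128 FPKM in M31 against 61.5 FPKM at most elsewhere, and Rplp0 were among the leaders of this pattern. Rps12 (925 and 1059 FPKM, 570.5 at most elsewhere) and Rpl10 (275 and 264 FPKM, 148 at most elsewhere) followed.

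The same 2 retinas held lens RNA. The 11 lens genes of a marker list, all measured, summed to 33521 FPKM in M22 and 48836.5 FPKM in M31, and to 50.7 to 1841 FPKM in the other 14, so no retina lacked them. The group medians were 139 FPKM for spaceflight and 426 FPKM for ground control retinas. The crystallin Cryaa was at 9594 FPKM in M22 and 15011 FPKM in M31, and at 532 FPKM or under elsewhere. Retinal markers, 19 genes with rhodopsin among them, summed to 15623 FPKM in M22, the lowest of all retinas, and to 20535 FPKM in M31. Of 11 cornea genes, all measured, the sum was 2466 FPKM in M21 and 1270.0 FPKM in M22. It was 16.4 to 114 FPKM in all other retinas of both groups. In M31 the sums of pigment epithelium, fibroblast and microglia markers were also the highest of all retinas, at 9531, 447 and 170 FPKM, and M22 was second for fibroblast markers at 248 FPKM. The part of RNA from these other cell types in the ribosomal protein levels was not tested. Without M22 and M31 the median change of the 81 genes was −0.09, 11 genes were lower by the looser rule (against 5.29% of all genes) and 9 (11.1%) were called by the main rule, among them Rps29 (−0.70, limma adjusted p = 0.279), against 8.08% of all genes.

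M40 departed in another way, with some members far up and others far down. It was the highest retina in 28 genes and the lowest in 4. In 30 genes, 15 of each subunit, it was at 1.5 times the median of the other 15 or more. Rps29 (2.99 times), Rps28 (2.63 times) and Rps27 (2.63 times, at 1643 FPKM) led, and they are the members with the shortest RefSeq transcripts, at 390, 396 and 346 nucleotides. Rps14 (2.51 times, at 107 FPKM) and Rps21 (2.30 times, at 711 FPKM) came next. At the other end were Rpl22l1 at 0.129 times, Rps6 at 0.541 times and Rps2 at 0.641 times the median of the others.

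The deviations of M40 and M32 over the 81 genes resembled each other, with a Pearson r of 0.71. M22 and M31 had a higher r (0.83), and M32 with M36 (0.64) and M25 with M30 (0.63) came next. These are correlations across genes in pairs of libraries of 1 table, and genes are not independent replicates. In M40 and M32 the deviations went with the GC content of the transcript. Over the 81 members r was 0.41 in M40 and 0.42 in M32, and −0.261 to 0.286 in the other 14 retinas. Over 13582 genes it was 0.440 and 0.365, and −0.145 to 0.059 in the other 14. The part of GC content in the differences between groups was not tested. Across the 81 genes the log2 change had a Pearson r of −0.385 with GC content, against −0.298 across all genes.

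Without M32 and M40 only Rps29 was left at the looser rule, with 74 of 81 changes negative and a median of −0.11. Without M22, M31 and M40 the median was −0.02, with 46 of 81 changes negative, and 4 genes passed the looser rule as lower, Rpl18, Rpl23a, Rplp2 and Rps29. The background of all genes lower was 0.817% without M32 and M40 and 2.13% without M22, M31 and M40.

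**Figure D4:**
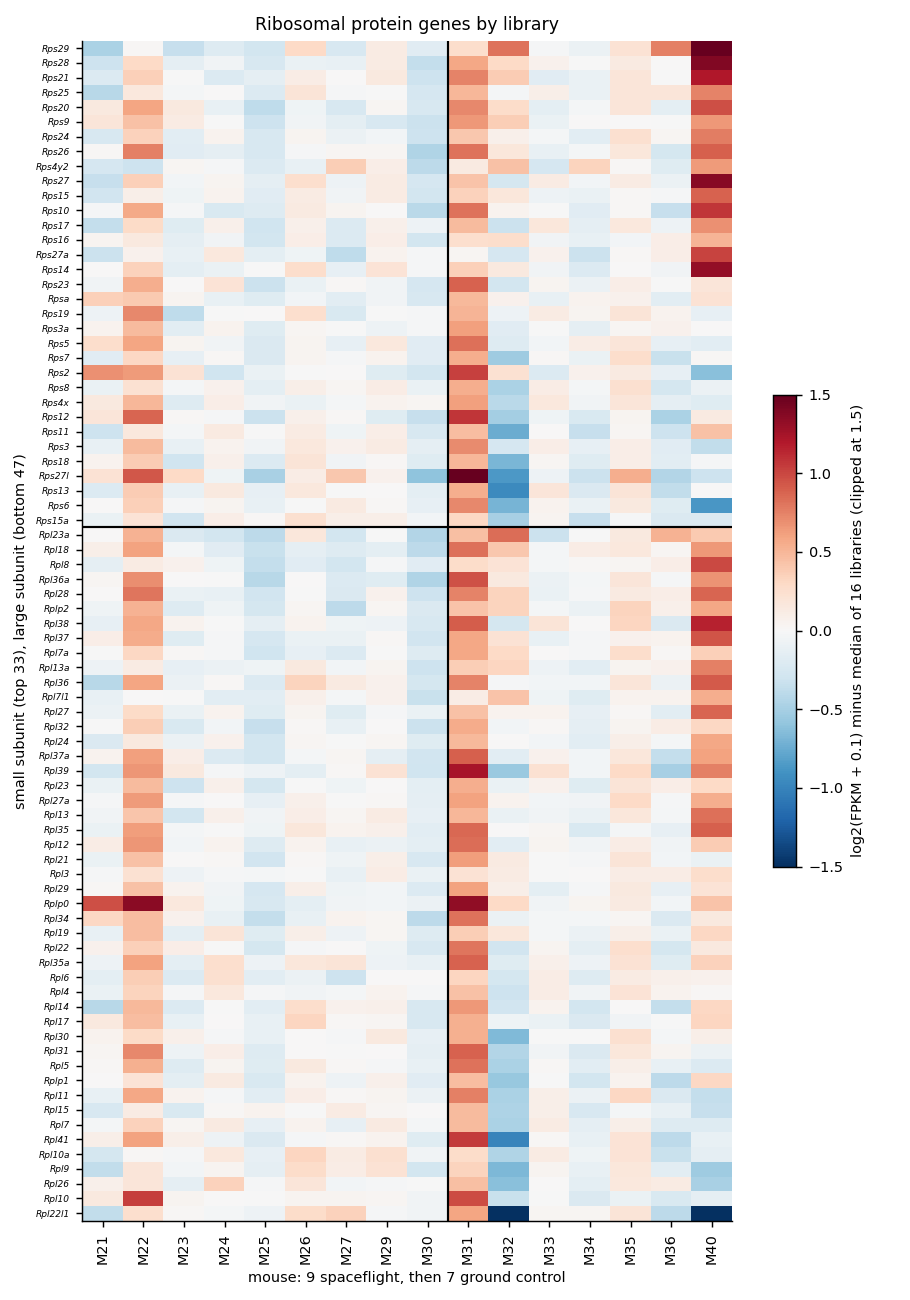
Each row is 1 of 80 ribosomal protein genes and each column 1 retina, 9 spaceflight on the left and 7 ground control on the right. Colour is log2(FPKM + 0.1) minus the gene's median over the 16 retinas. M22 and M31 are red in nearly all rows. M40 is mainly red and M32 more often blue, each with rows of the other colour, and Rpl22l1 is the lowest row in both.

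Members varied together across retinas, and less so once these few libraries were left out. Over the 3240 pairs of genes the median Pearson r across the 16 retinas was 0.62, and it was 0.36 without M22 and M31 and 0.31 without M40 as well. Pairs within the large subunit (0.66) were above pairs within the small subunit (0.53) and pairs between subunits (0.60). All pairs share their libraries and normalization, so these are descriptions. Rpl12 went with the other members most (mean r 0.71), and Rpl22l1 (0.01), Rps4y2 (0.12) and Rps29 (0.25) least.

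No member passed a test of whether the change differed between left and right retinas, at a lowest adjusted p of 0.644 for the interaction of eye and flight (limma, all genes) and with 4 members (4.94%) at an unadjusted p of 0.05 or under, against 7.30% of all genes. Among left retinas (4 spaceflight against 2 ground control) all 81 changes were negative, with a median of −0.25, and M31 was 1 of the 2 controls. Among right retinas (5 against 5) the median was −0.10, with 51 changes negative. With the mouse numbers used here, M32 is a right and M33 a left retina in RNA, and the reverse in DNA. By the mouse numbers of the labels, the eyes of M32 and M33 are the same in both.

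Other genes of the translation machinery were taken from lists of known members. Of 6 ribosomal proteins with other names, 4 were tested, with a median log2 change of −0.20. Fau, Rpl36al and Gnb2l1 (Rack1) did not pass the looser rule, with log2 changes of −0.19, −0.21 and −0.03. Among 19 further mRNAs known for an oligopyrimidine start, the median change was −0.06, with 14 changes negative. Of these 1, the elongation factor Eef2, was lower by the looser rule (log2 change −0.30, limma adjusted p = 0.369), against 2.92% of all genes. Eef1a1, the most abundant of them, had a log2 change of −0.03 ± 0.12 (SE).

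Of 43 measured genes of ribosome assembly and RNA polymerase I, 1 was lower by the looser rule (Nop10, log2 change −0.36, limma adjusted p = 0.395). Of 20 genes around mTOR, 0 passed it. The medians of these 2 lists were −0.05 and −0.08, with 25 and 12 changes negative. Mitochondrial ribosomal proteins, which serve a separate ribosome, had a median of −0.07 over 75 genes. Of these changes 55 were negative, against 50.1% of all genes. By the looser rule 6 were lower and 1 higher, against 2.92% and 4.36% of all genes. Mrps12 was called by the main rule, at 12.5 ± 1.83 FPKM in spaceflight retinas, against 19.2 ± 3.77 FPKM in ground control retinas (SD, log2 change −0.60, limma adjusted p = 0.218).

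Genes at opposite ends of the changes carried the pyrimidine run at the start, among them Rpl18 (log2 change −0.38), Rps15a (0.17) and Rpl22l1 (0.71), while the window of Rps28 (−0.45) held none, which says only that these letters are not there. The 23 genes with a run had a median log2 change of −0.15 (17 negative) and the 36 without one −0.08 (24 negative). Over the 300 bases of each promoter row, the letters CCGGAAG, on either strand, which ETS factors such as GABP bind, were found in 40.7% of members and 12% of all promoters. The letters AAGATGGC, which YY1 binds, were found in 8.47% and 3.28%. A match is a description and not a site. The 25 members with a small nucleolar RNA or microRNA inside the gene had a median log2 change of −0.12, and the 56 that do not also had −0.12.

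Promoter methylation gave no called difference either. A promoter spanned 1000 bp before and after the start and needed 5 or more CpGs with 10 or more reads in all 16 DNA libraries. Methylated and unmethylated reads, summed over the CpGs of a promoter, were compared by quasi-binomial logistic regression over 13723 promoters. None of the 75 members covered reached a difference of 10 points with an adjusted p of at most 0.05, and the background was 0% of all promoters. At an unadjusted p of 0.05 or under 4 members were higher and 4 lower, against 2.55% and 3.16% of all promoters. The median difference over members was −0.0486 points (spaceflight minus ground control).

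Most of these promoters were nearly free of methylation. The median member was at 0.500%, against 0.520% over all promoters, and 66 of 75 were under 5%. At such levels the reading cannot be told apart from incomplete bisulfite conversion. Read counts summed over the CpGs of a promoter were 196 to 6569 per retina. A read over several CpGs counts at each of them, so the number of separate reads is lower. Rps25 had 0.448% ± 0.155 in spaceflight retinas, against 0.343% ± 0.0974 in ground control retinas (SD, n = 8 each). Rplp2 had 0.270% ± 0.104 in spaceflight retinas, against 0.388% ± 0.196 in ground control retinas.

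Only 5 promoters were at 20% or more, and 3 of them are the X-linked members covered, in female mice, whose inactive X is methylated at many gene starts. Rpl36a had 39.65% ± 4.36 in spaceflight retinas, against 38.6% ± 4.38 in ground control retinas. Rpl39 had 36.7% ± 2.79, against 37.5% ± 1.19 in ground control retinas, and Rps4x 34.3% ± 3.55, against 35.9% ± 2.98 in ground control retinas. All 405 X-linked promoters had a median of 34.3%. The others were Rps4y2, at 45.8% ± 2.93, against 47.2% ± 3.33 in ground control retinas, and Rpl22, at 29.4% ± 8.90, against 33.9% ± 6.29 in ground control retinas. The groups overlapped in each of the 5.

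The largest of the differences at an unadjusted p of 0.05 or under was that of Rps24, a small subunit protein whose human gene is mutated in some families with Diamond-Blackfan anaemia. Its promoter, over 21 CpGs, was at 2.72% to 5.97% in spaceflight retinas (median 3.65%), against 4.42% to 11.1% in ground control retinas (median 5.94%), a difference of −3.02 points (adjusted p = 0.728). Rpl5, over 68 CpGs, was at 3.30% to 5.42% in spaceflight retinas (median 3.89%), against 4.04% to 8.17% in ground control retinas (median 6.23%), a difference of −2.07 points (adjusted p = 0.728). Of the 9 genes lower in RNA by the looser rule, 7 had a promoter tested (not Rps28 and Rps29), and of these Rpl18 alone was among the 8 promoters at that p, at 0.793% ± 0.0794 in spaceflight retinas, against 1.06% ± 0.288 in ground control retinas (SD). With promoters of 200 bp to either side, 0 members were higher and 1 lower at that unadjusted p.

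**Figure D5:**
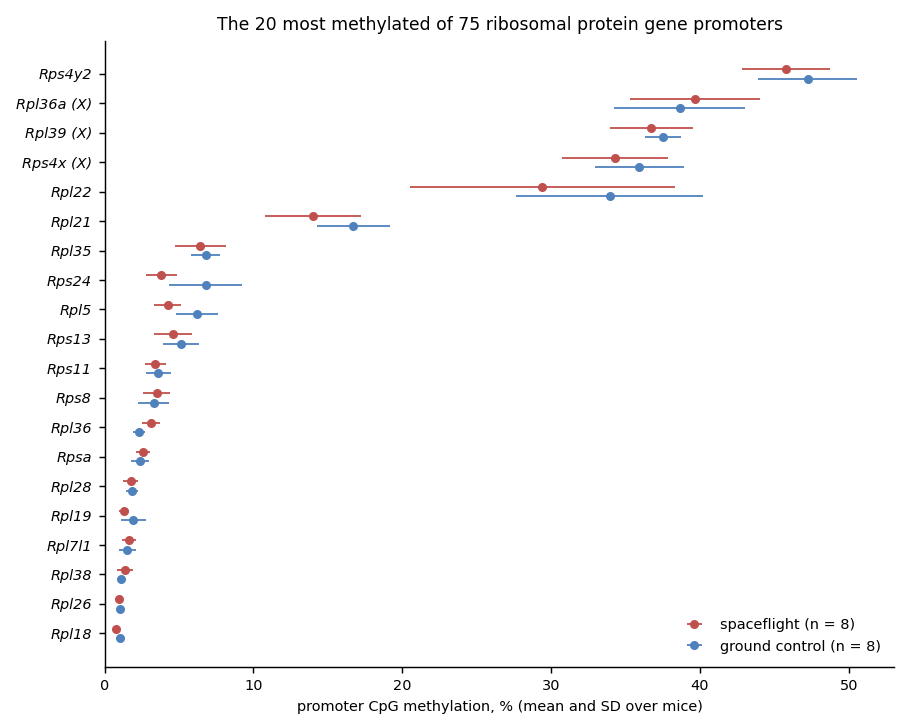
Promoter CpG methylation in percent (horizontal axis, linear from 0; mean and SD over 8 spaceflight and 8 ground control mice) of the 20 most methylated of 75 ribosomal protein gene promoters. X marks X-linked genes. The 5 highest lie between 29.4% and 47.2% and the rest at 16.7% or under.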

How the data were processed

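The members, gene lists and comparisons were chosen with earlier results of these data known. For RNA, libraries were strand-marked and depleted of rRNA per the labels, and the deposited FPKM were made by the authors with Trimmomatic for trimming, TopHat2 for alignment (GRCm38) and Cufflinks. They carry no read counts, so the depth behind a value is unknown and the authors' Cuffdiff test was not repeated. Of the columns, 2 of mice without a matching label were not used, and 1 entry without a gene name, up to 0.388% of a library's FPKM, was left out. For DNA, the authors used Trim Galore 0.4.5 and Bismark, and deposited the count of reads and the percent methylated per CpG cytosine. Deposited read counts, summed over CpGs, came to 59522828 to 105231767 per library, where a read over several CpGs counts at each of them.

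Genes with a mean FPKM of 1 or more were compared with limma 3.58.1 (R 4.3.3, mean-variance trend) on log2(FPKM + 0.1), which understates changes of low genes, with Benjamini-Hochberg adjustment over all 14322. A call needed a fold change of 1.2, p of 0.05 and adjusted p of 0.3, the study's thresholds. CpG strands were added, and 1071561 CpGs had at least 10 reads in all 16 libraries. Read counts summed over the CpGs of a promoter were fitted by quasi-binomial logistic regression with overdispersion of at least 1 and an F-test. Both tests were tested on simulated data. Libraries of a group are separate mice. Transcript lengths, GC content, start positions and pseudogenes came from RefSeq GRCm38.p6, in which the deposited positions on chromosome 19 were all CpGs. Genes named are the 9 at the looser rule, the 3 highest and 3 lowest of each subunit, the extremes of change, the paralogue pairs, the stalk and 7 with further roles. Values of some genes are not reported here. Alternatives were filters, pseudocounts, scalings, weights, eye, the reading of M21 and each library left out. Leaving out M22 and M31, these and M40, or M32 and M40, and exchanging the eyes of M32 and M33, were chosen after seeing the data.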

Additional observations from a re-analysis of the deposited data

Results flagged for a closer look

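Some retinas lay apart from their group in the results above. A gap test was applied to each group's highest and lowest value in 28 tests of subunit sums, their ratio and single genes. Chance flags about 1 in 20 groups in this test, and 9 values stood out, all of them from M22 and M40. The tests share libraries and members vary together, so these flags are not independent and cannot be set against that rate. The spaceflight retina M22 had the highest small subunit sum (9861 FPKM, the next 7934) and large subunit sum (16004 FPKM, the next 12096), and the highest Rpl7a (236 FPKM), Rpl18 (185 FPKM) and Rplp2 (525 FPKM). The ground control retina M40 had the highest ratio of small to large subunit sums (0.793, the next 0.660) and the highest Rps29 (1028 FPKM), Rpl8 (361 FPKM) and Rps28 (645 FPKM). Over all 81 genes the same test set apart M22 in 34, M31 in 17 and M40 in 7 genes, always as the highest. There is no share over all genes beside these counts, so they are not a result particular to ribosomal protein genes.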

How the results depend on the processing

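By the limits used, 282 of 309 recomputed summary values stayed near the main value. These limits were wide. With promoters of 200 bp to either side the median methylation difference was 0.00777 points, against −0.0486, and counted as near despite the other sign. Of the 81 genes 0 were called in the main test. Rescaling to sums without short structured RNAs, which moved the median of all genes to 0.09, called 1 gene higher (Rps15a) and 1 lower (Rps29), 2.47% against 7.42% of all genes, and library quality weights called 2 lower, 2.47% against 2.39%. Without M22 and M31 9 were called lower, and 8 were with eye as a covariate and the eyes of M32 and M33 exchanged (9.88%, against 5.94% of all genes). By the looser rule, quantile normalization gave 4 higher and 3 lower (against 3.59% and 2.81% of all genes). Rescaling gave 1 higher and 3 lower (against 10.5% and 0.866%). Weights gave 4 lower (against 1.7%) and left retinas 0 lower (against 1.61%). Right retinas gave 1 higher and 9 lower, against 5.91% and 5.68% of all genes. In turn 4 were lower without M22, M31 and M40 (against 2.13%) and 1 without M32 and M40 (against 0.817%). The causes were not tested. Leaving out each library in turn gave 0 to 2 genes called higher and 0 to 6 called lower, and 0 to 3 higher and 4 to 17 lower by the looser rule. Without M31 these were 2, 3, 3 and 4 (6.17% called, against 9.56% of all genes), and without M33 6 were called lower (7.41%, against 3.55%). The median over the 81 genes then ran from −0.19 (without M22) to −0.03 (without M31). Of the 36 genes chosen for naming, 20 took both signs over the settings and 25 moved by over 1.5 times or turned when 1 library was left out. Of the genes at the looser rule or the extremes of change, signs turned for Rps15a (−0.14) and Rpl22l1 (−0.35) in left retinas, and for Rpl22l1 without M32 and M40 (−0.0499). With promoters of 200 bp to either side, 0 were higher and 1 lower at an unadjusted p of 0.05. No paired analysis was possible because the groups share no mice.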
